A study of Mus musculus with 305 samples.

Results

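The prefrontal cortex (PFC) of mice that met heroin for the first time was compared with that of mice given saline instead. The comparison took every library that the labels place in the PFC and in the SH or the SS group, which gave 16 of the 51 PFC libraries and 5.25% of all libraries of the series, 8 per group, each from a different mouse. The series is bulk RNA-seq of 6 brain regions from 51 male wild-type mice in 6 groups, made to find transcripts that mark heroin intake and relapse. Mice of both groups worked for saline through an intravenous line for 15 d and then spent 30 d without it. SH mice were then challenged with heroin and SS mice with saline, and both went through a drug-seeking test of 2 h. By these labels no mouse of either group had taken heroin before the challenge, and both groups share the saline training, the withdrawal and the test. A second pair of PFC groups, 8 HS and 8 HH mice, had taken heroin for 15 d and met saline or heroin after the same 30 d. This pair shares no mouse with the first pair. The labels give neither the dose of the challenge, nor the age or strain of the mice, nor the subdivision of the PFC that was dissected.

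The prefrontal cortex is a frontal cortical area that steers goal-directed behaviour and projects to the striatum, the amygdala and the midbrain. Heroin is turned into morphine in the body and acts mainly through the mu opioid receptor, a receptor that couples to inhibitory G proteins and damps neurons that carry it, many of them inhibitory interneurons. When cortical neurons fire, calcium and MAP kinase signals switch on immediate early genes within minutes, first transcription factors such as Fos and Egr1 and then effectors such as Arc and Bdnf.

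The 16 libraries held 22.9 to 43.48 M counts (median 30.03 M), and all pairs of same-group PFC libraries among the 32 of SS, SH, HS and HH differed by far more than counting noise (lowest chi-square per degree of freedom 8.023). The label PFC fits the markers: Slc17a7, the vesicular glutamate transporter of cortical neurons, averaged 1349.7 ± 87.8 CPM (read counts scaled to the size of the library; SD, n = 8) in SS and 1410.3 ± 178 CPM in SH, and Fezf2, a transcription factor of deep-layer cortical neurons, averaged 69.9 ± 7.11 and 71.6 ± 7.77 CPM. Striatal Drd1, the dopamine D1 receptor, stood at 28.3 ± 7.44 and 27.6 ± 7.54 CPM. The mean log2 CPM of 13 striatal projection neuron markers ran from 3.68 to 4.93 in SS (median 3.71). In SH it ran from 3.38 to 4.65 (median 3.76). The highest library of each group thus stood well above its group median, and whether such libraries hold striatal tissue was not tested. Of the 32 libraries only that of SS mouse 15 stood apart from the rest by rank correlation. The share of counts on mt-Rnr2, a mitochondrial ribosomal RNA, was over 2% in SH mice 10, 17, 19 and 30 and in SS mouse 22, and its part in the results was not tested beyond the alternatives given below. The codes in the titles of the BLA libraries of these mice begin with 1 or 2, and the labels do not say what that number stands for. It is used below only as a way to split the mice, called set 1 and set 2, with 3 SS and 4 SH mice in set 1 and 5 SS and 4 SH mice in set 2.

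After a first heroin challenge Acer2 fell and Dio2 and Zswim6 rose, and these were the only genes that edgeR called among 19976 tested. DESeq2, run as an alternative, called 16, these 3 among them. A gene was called when its p from edgeR's quasi-likelihood test, adjusted over all genes by the method of Benjamini and Hochberg, was under 0.05. The 3 calls were 0.015% of the genes tested, with 2 higher (0.01%) and 1 lower (0.00501%) in SH. At an unadjusted p under 0.05 there were 1119 genes (5.6%), 527 higher (2.64%) and 592 lower (2.96%). All 3 calls were made in 15 of the 16 fits that each left out 1 library. Without SS mouse 28 Dio2 was not called (adjusted p = 0.0508), which left 2 calls. There were 15 calls without SS mouse 22, 8 calls without SH mouse 29, 6 calls without SS mouse 8 and 5 calls without SS mouse 15. Within mouse set 1 alone no gene was called, with 1899 at an unadjusted p under 0.05. Within set 2 alone Acer2 and Dio2 were.

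Acer2 encodes an alkaline ceramidase of the Golgi that splits ceramide into sphingosine and a fatty acid. The gene lies on chr4:86874396-86934822 (GRCm38, plus strand, protein coding). Its level was 9.58 to 19.3 CPM in the SS libraries (median 13.8) and 5.33 to 8.14 CPM in the SH libraries (median 6.05). Every SH library lay below every SS library. The difference was -1.10 ± 0.16 (log2, ± SE), with an edgeR adjusted p of 0.00126. Adding the share of counts on mt-Rnr2, the oligodendrocyte score or the meningeal fibroblast score to the fit gave -0.997, -1.15 and -1.11. Within set 1 the difference was -0.83 and within set 2 -1.24.

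Dio2 encodes the deiodinase that turns thyroxine into the active thyroid hormone inside the brain, where astrocytes are its known main source. It lies on chr12:90724552-90738438 (GRCm38, minus strand, protein coding). Levels ran from 100.7 to 149.8 CPM in SS (median 120.4) and from 150.7 to 216.3 CPM in SH (median 171). The groups touched without overlapping, the highest SS library being that of mouse 6 and the lowest SH library that of mouse 17. Dio2 was higher in SH by 0.54 ± 0.10 (log2, ± SE; edgeR adjusted p = 0.011), by 0.37 within set 1 and by 0.65 within set 2. With the oligodendrocyte score in the fit the adjusted p was 0.0574, and with the meningeal score 0.102, at differences of 0.51 and 0.55. The 250 bases before the RefSeq start of Dio2 are shown because they hold a full cAMP response element, the letters TGACGTCA, which is the site that the factor CREB is known for. This RefSeq start lies upstream of the start of the gene in the GENCODE coordinates above, so the element is farther from the latter. The element begins 95 bases before the RefSeq start and is in capitals (GRCm38.p6, chr12:90739039-90739288, minus strand, read 5′ to 3′).
Dio2: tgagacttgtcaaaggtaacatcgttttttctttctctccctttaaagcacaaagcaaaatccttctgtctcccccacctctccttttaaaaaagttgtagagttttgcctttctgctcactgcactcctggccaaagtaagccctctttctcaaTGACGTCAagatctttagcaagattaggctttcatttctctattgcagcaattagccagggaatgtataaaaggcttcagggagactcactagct
The element, searched on both strands of which it reads the same, occurs in 508 of 32851 RefSeq promoters of this length (1.55%). The windows of Acer2 and Zswim6 held neither this element nor the AP-1 site TGANTCA, the E-box CACGTG or a CArG box, which says only that these letters are not there.

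Zswim6 encodes a protein with a zinc finger of the SWIM type. The gene spans chr13:107724617-107890064 (GRCm38, minus strand) and is typed as a processed transcript in GENCODE M21. Its spread between mice was small: SS libraries held 30.4 to 35.5 CPM (median 31.8) and SH libraries 36.1 to 44.9 CPM (median 41.6). No SS library reached the lowest SH library. The difference was 0.33 ± 0.06 (log2, ± SE; edgeR adjusted p = 0.011). It was of similar size in both mouse sets, 0.33 and 0.35, though neither set alone gave a call. With the oligodendrocyte score in the fit the adjusted p was 0.0545 and with the meningeal score 0.176, at 0.32 and 0.31.

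**Figure D1:**
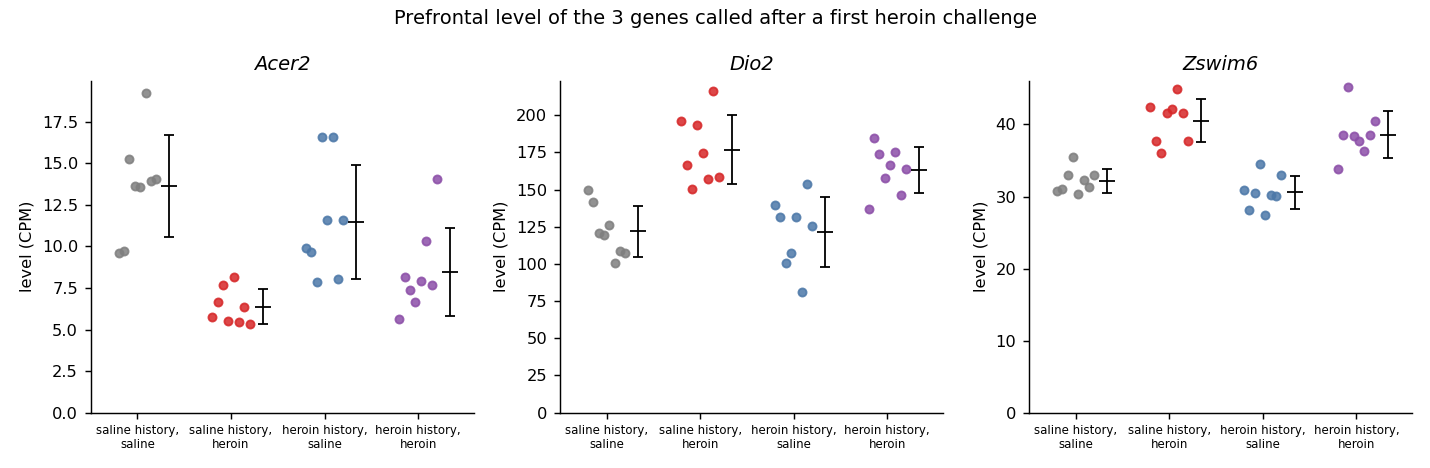
Level in CPM (y axis, from 0) of the 3 called genes in each PFC library of the 4 groups, points being mice and bars the mean ± SD of 8 mice. SH and SS libraries do not overlap for Acer2, Dio2 or Zswim6, while HH and HS libraries do.

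SH and SS libraries did not overlap for 12 of the genes tested (0.0601%), 7 higher (0.035%) and 5 lower (0.025%). Besides the called genes, those higher were Nes, Dusp6, Spry2, Inhba and the pseudogene Gm15753. Nes, the intermediate filament nestin of progenitors, endothelium and reactive glia, went from 6.75 to 9.06 CPM in SS (median 7.41) to 9.11 to 13.1 CPM in SH (median 11.4). Inhba, the subunit of activin A and a gene induced by neuronal activity, stood at 8.02 to 13.4 CPM in SS (median 10.8) and 13.7 to 18.6 CPM in SH (median 14.9). Neither passed the adjusted test, with edgeR adjusted p of 0.228 for Nes and 0.113 for Inhba. Those lower besides Acer2 were Serpina3n, Lrig3, Sesn1 and Gpr146, with log2 differences of -0.39, -0.66, -0.12 and -0.21.

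Among activity-regulated genes, most AP-1, Egr, Nr4a and effector genes had a higher estimate after the first heroin challenge, by small amounts, and the MAP kinase feedback genes were more mixed. None of them was called in edgeR, while DESeq2 called Fosb, Fosl2, Bdnf and Inhba, with adjusted p from 0.013 to 0.0465. All 8 AP-1 genes and all 7 Egr and Nr4a genes had a higher estimate in SH, where 47.4% of all genes tested did, and 4 and 7 of them had an unadjusted p under 0.05 in that direction (2.64% of all genes). Of 22 effectors 20 were higher and 16 had such a p. Of 16 MAP kinase feedback genes 11 were higher and 5 lower, and 6 had such a p. The list medians were 0.35, 0.35, 0.19 and 0.11 (log2), beside -0.008 over all genes. Within set 1 the counts at this p were 2, 4, 4 and 3, and within set 2 they were 4, 3, 13 and 4. Over all genes, in either direction, 1899 of 21631 had such a p within set 1 and 795 of 21312 within set 2. In the fit of all libraries it was 1119 of 19976. Effectors at this p numbered 10 without SH mouse 29, without SS mouse 22 and without SS mouse 28, and MAP kinase feedback genes 4 without SH mouse 19. With the meningeal fibroblast score in the fit the 4 counts were 4, 4, 15 and 2, where 726 of 19976 genes had such a p in either direction.

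AP-1 factors are dimers of Fos and Jun proteins, and their site was searched here loosely as TGANTCA, with any base in the middle. Fosb had the smallest p of the family: 19.6 to 38.7 CPM in SS (median 29.6) against 28.0 to 51.3 CPM in SH (median 44.4), a difference of 0.52 ± 0.11 (log2, ± SE; edgeR adjusted p = 0.113). SH mouse 29 was the lowest of its group and the only one below the SS mean. Fosl2 ran from 71.9 to 99.6 CPM in SS (median 81.4) and from 89.5 to 123.8 CPM in SH (median 110.6), higher by 0.32 ± 0.08 (edgeR adjusted p = 0.188). Fos itself, the standard marker of recently active neurons, ran from 23.9 to 47.2 CPM in SS (median 37.4) and from 41.3 to 54.3 CPM in SH (median 48.1). All 8 SH libraries exceeded the SS mean for Fos, though the ranges overlapped (0.41 ± 0.14; edgeR adjusted p = 0.589). Atf3, a stress-induced member, was near 1 to 2 CPM (0.91), and Junb, Jun, Jund and Fosl1 differed by 0.16, 0.11, 0.38 and 0.08 with p from 0.11 to 0.58.

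The Egr zinc finger factors and the Nr4a orphan receptors are induced by the same signals. Egr2 ran from 7.24 to 12.5 CPM in SS (median 9.68) and from 10.4 to 18.2 CPM in SH (median 13.9), a difference of 0.52 ± 0.16 (log2; edgeR adjusted p = 0.436). Egr4 ran from 26.0 to 43.7 CPM in SS and from 20.4 to 55.7 CPM in SH. Its lowest SH library was again that of mouse 29, the only SH library under the SS mean. Nr4a3 was higher by 0.32 ± 0.10, Egr1 by 0.35, Egr3 by 0.26, Nr4a2 by 0.37 and Nr4a1 by 0.33. Summed as the mean log2 CPM of the 7 genes, SH libraries stood at 5.52 to 6.23 and SS libraries at 5.34 to 5.82. Mice 29 and 24 were the lowest SH mice in this score and also in the AP-1 score.

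MAP kinase feedback genes encode phosphatases and Sprouty proteins that switch the pathway off again. Spry2 held 38.8 to 46.0 CPM in SS (median 43.0) and 47.1 to 59.9 CPM in SH (median 50.6), and Dusp6, the phosphatase of ERK, 72.8 to 90.9 CPM (median 84.7) and 91.4 to 111.5 CPM (median 99.4). For both genes all SH libraries lay above all SS libraries. The differences were 0.25 ± 0.06 for Spry2 and 0.26 ± 0.07 for Dusp6 (log2, ± SE; edgeR adjusted p = 0.256 and 0.328). Dusp4, Spred2, Dusp5 and Spry4 were higher by 0.32, 0.20, 0.29 and 0.26 at p from 0.0102 to 0.04. Dusp1, Errfi1 and Spry1 differed by 0.05, -0.09 and -0.17.

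Among effectors, Bdnf, the neurotrophin of activity-dependent plasticity, held 49.2 to 69.9 CPM in SS (median 55.9) and 58.9 to 77.5 CPM in SH (median 71.02), higher by 0.31 ± 0.07 (log2; edgeR adjusted p = 0.188). Arc, which governs removal of AMPA receptors from synapses, held 165.8 to 277.2 CPM in SS (median 229.7) and 234.6 to 354 CPM in SH (median 302.8), higher by 0.38 ± 0.13 (edgeR adjusted p = 0.575). Vgf and Scg2, granin precursors of secreted peptides, were higher by 0.24 and 0.16, Homer1, a scaffold of glutamate receptors, by 0.19 and Ptgs2, the inducible cyclooxygenase, by 0.19. The 2 members with a lower estimate were Ccn1 (-0.38) and Arl4d (-0.18), neither with a p under 0.05. Of 16 other rapid regulators 12 were higher and 4 lower, 4 of the higher ones at an unadjusted p under 0.05, and Klf2, a factor of endothelium that responds to blood flow, was lower (-0.30, p = 0.0115).

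**Figure D2:**
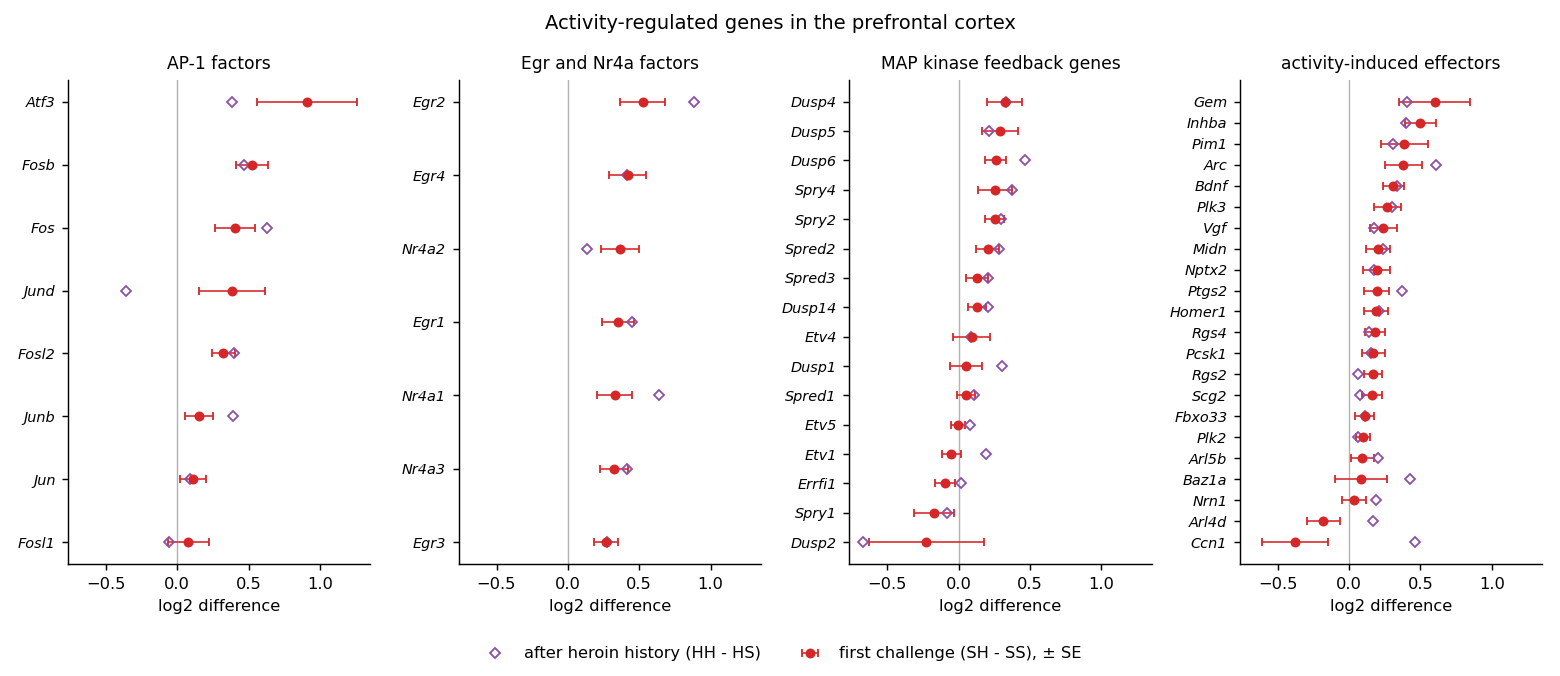
Log2 difference (x axis) of each tested member of the 4 activity lists, red points being SH minus SS with its SE and open diamonds HH minus HS. All AP-1 and all Egr and Nr4a members lie right of 0 after the first challenge, Atf3 farthest at 0.91 with the widest error among them.

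The cAMP response element seen before Dio2 was also searched before the activity genes, to set its presence beside the values. It was found in 5 of 16 effectors with a RefSeq promoter, 2 of 13 MAP kinase feedback genes, 2 of 12 other rapid regulators, 0 of 7 AP-1 genes and 0 of 5 Egr and Nr4a genes. These are counts of genes, some with several promoters, beside 1.55% of all promoters. Counted by promoter, the effectors had 5 of 25. The element in capitals is shown with 10 bases on each side, on the strand of the gene. Among carriers, Pcsk1, Scg2 and Plk2 had an unadjusted p under 0.05 in SH against SS, where 5.6% of all genes did. They are all effectors, a list in which 16 of 22 members were higher at such a p, with or without the element. A link between the element and the response was not tested.
Pcsk1: caggtagatcTGACGTCAagagatggct
Scg2: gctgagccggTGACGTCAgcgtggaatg
Plk2: gcgctcgccgTGACGTCAcgaggccccg
Arl5b: aggcgcccgcTGACGTCAgcgcgccgac
Dusp1: gtagggcgggTGACGTCAccgcccggtc
Errfi1: ctgcgggcgtTGACGTCAcgttgtcgct
Arl4d: ccgcgtcgtgTGACGTCAcgagagggtt
Btg2: ttcccaataaTGACGTCAgtgagcgatg
Maff: gctggggcggTGACGTCActgcatgact
The log2 differences in this order were 0.17, 0.16, 0.10, 0.09, 0.05, -0.09, -0.18, -0.19 and -0.24. Genes with the element thus had differences of either sign, and all of them were smaller than that of Dio2. Their positions in GRCm38.p6 include chr13:75089769-75089796 (plus strand) for Pcsk1, chr1:79440077-79440104 (minus strand) for Scg2 and chr13:110394972-110394999 (plus strand) for Plk2. Among the Egr and Nr4a genes, only Egr2 held a CArG box, the site of serum response factor, which occurs in 1.47% of all promoters.

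Genes of the acute-phase and cytokine response mostly had lower estimates after the first challenge. Of 23 tested members 22 had a lower estimate, where 52.6% of all genes did, and 8 had an unadjusted p under 0.05 (2.96% of all genes), with a median of -0.58 (log2). The list holds 29 members, and levels were low. The mean log2 CPM of the tested members ran from 0.81 to 1.85 in SS and from 0.30 to 1.14 in SH. Estimates of members below 1 CPM are therefore not firm, and they enter this count and median. None was called in edgeR, while DESeq2 called Lcn2, Il1r1 and Serpina3n, with adjusted p of 0.0165, 0.0122 and 0.0465. Lcn2, a secreted iron-siderophore carrier strongly induced in inflamed glia and endothelium, held 9.16 to 35.2 CPM in SS (median 18.5) and 3.41 to 9.51 CPM in SH (median 6.56). Only the SS library of mouse 8 and the SH library of mouse 29 crossed. The difference was -1.55 ± 0.31 (log2; edgeR adjusted p = 0.0579), and -1.67 at an adjusted p of 0.0463 with the oligodendrocyte score in the fit. Il1r1, the signalling receptor for interleukin-1, held 6.64 to 10.9 CPM (median 9.11) and 2.76 to 7.00 CPM (median 4.98), lower by -0.76 ± 0.16 on the same scale (edgeR adjusted p = 0.108). Serpina3n, a protease inhibitor of reactive astrocytes, held 16.3 to 20.0 CPM in SS and 11.1 to 16.0 CPM in SH, without overlap (-0.39 ± 0.09; edgeR adjusted p = 0.188). Osmr, the oncostatin M receptor, Ch25h, an interferon-induced hydroxylase, and Steap4, a metalloreductase, differed by -0.58, -0.99 and -1.25, and C4b, a complement component, by -0.54. Within mouse set 1 the median of the list was -0.13 and within set 2 -0.52. Endothelial, mural and meningeal markers were lower in the same SH libraries, as given below. With the oligodendrocyte and meningeal scores both in the fit the list had 9 members lower at an unadjusted p under 0.05 and a median of -0.50. Over all genes 490 of 19976 had such a p in either direction in that fit. No endothelial or mural score was fitted, so this fit does not account for those markers.

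The other genes among the 12 lower ones with the smallest p, on no acute-phase list and apart from Acer2, were Apold1, Lrg1, Lyz2, Dcn, Ptgds, Tmem252 (-1.20 ± 0.28, log2), the copper-binding ferroxidase Cp (-0.59 ± 0.14) and Plekhg1 (-0.48 ± 0.12). Apold1, an early response gene of endothelium, held 6.72 to 10.1 CPM in SS (median 8.85) and 3.73 to 7.25 CPM in SH (median 5.39), a difference of -0.68 ± 0.15 (log2; edgeR adjusted p = 0.148). Lrg1, a secreted glycoprotein of inflamed endothelium, held 1.15 to 4.83 CPM and 0.375 to 1.30 CPM. Lyz2, lysozyme of myeloid cells, differed by -0.80 ± 0.19. Dcn, the proteoglycan decorin of fibroblasts, held 6.28 to 12.4 CPM in SS (median 7.86) and 2.05 to 6.79 CPM in SH (median 4.34), and Ptgds, a prostaglandin D synthase abundant in meninges and oligodendrocytes, 133.9 to 376 CPM (median 186) and 74.8 to 156.4 CPM (median 112.1). All 8 SH libraries were under the SS mean for each of Apold1, Lrg1, Lyz2, Dcn and Ptgds. The edgeR adjusted p was 0.148 for Dcn (-0.94) and 0.204 for Ptgds (-0.84). With the oligodendrocyte and meningeal scores both in the fit the 2 differences shrank in size, the smallest over all alternatives being -0.35 and -0.19. Dcn is itself a member of the meningeal fibroblast list, so its own value enters that score and its shrinkage is in part by construction.

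**Figure D3:**
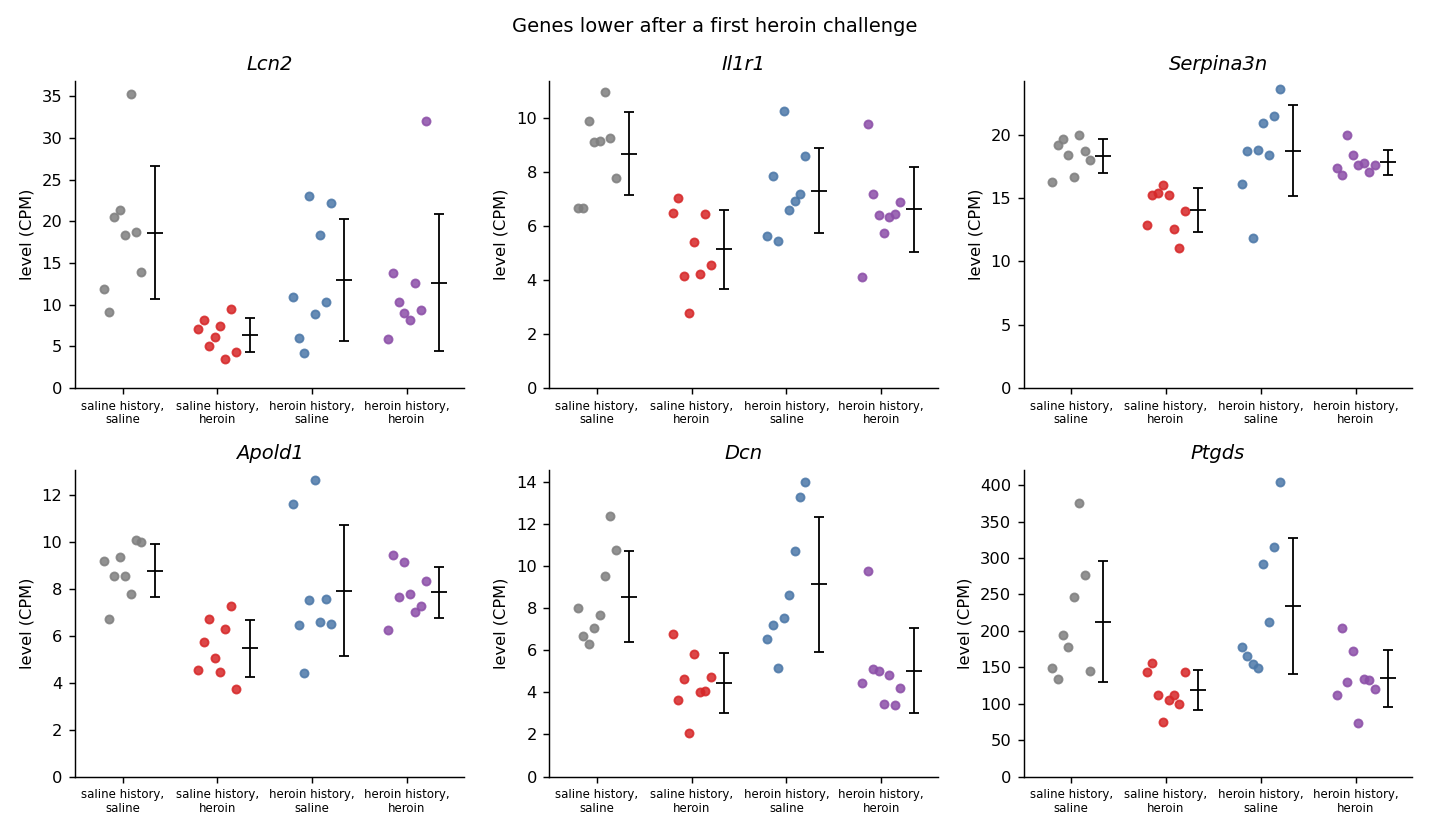
Level in CPM (y axis, from 0) of 6 genes with lower values after a first challenge in each PFC library, points being mice and bars the mean ± SD of 8 mice. For Lcn2, Il1r1, Serpina3n and Apold1 the SH libraries sit lowest of the 4 groups, while Dcn and Ptgds are low in both SH and HH.

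Some marker lists of other cell types had lower values in SH, and others were nearly level. In bulk tissue fewer cells of a type and less RNA per cell cannot be told apart. The counts that follow stand beside 52.6% of all genes with a lower estimate and 2.96% lower at an unadjusted p under 0.05. Of 14 meningeal fibroblast markers 13 were lower in SH and 10 had an unadjusted p under 0.05 (median -0.81), and the score of the list ran from 1.90 to 3.20 in SS and from 0.72 to 2.15 in SH, with all 8 SH libraries under the SS mean. SH mouse 19 held the lowest score. All 15 oligodendrocyte markers were lower and 13 had such a p (median -0.54), with scores of 4.46 to 6.21 in SS and 4.44 to 5.96 in SH. That count moved with single libraries: it was 2 without SS mouse 31, 3 without SS mouse 6, 6 without SH mouse 29, 7 without SH mouse 19 or 27 and 8 without SH mouse 10 or 24 or SS mouse 8. With the mt-Rnr2 share in the fit it was 1, where 736 of 19976 genes had such a p in either direction. All 14 endothelial and all 10 mural markers tested were lower, 4 of each at such a p, with medians of -0.17 and -0.26. All 8 SH libraries were under the SS mean in both lists. Microglial markers were lower in 14 of 15 cases (median -0.07, 0 at such a p) and astrocyte markers in 12 of 15 (median -0.05, 1 at such a p). Of 10 oligodendrocyte precursor markers 9 were lower (median -0.12, 1 at such a p). Of 9 blood markers 7 were lower (median -0.12, 1 at such a p), and the blood score ran from 2.98 to 3.57 in SS and from 2.16 to 3.51 in SH, with 7 of 8 SH libraries under the SS mean. Neuronal lists had medians of 0.03 for pan-cortical excitatory neurons, 0.05 for cortical interneurons, 0.02 for layer 5 neurons and -0.11 for layer 6 neurons. The part of these markers in the lower genes was not tested beyond the fits with the oligodendrocyte and meningeal scores. In these Acer2 alone stayed called under the meningeal score, and endothelial and mural scores were not fitted.

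**Figure D4:**
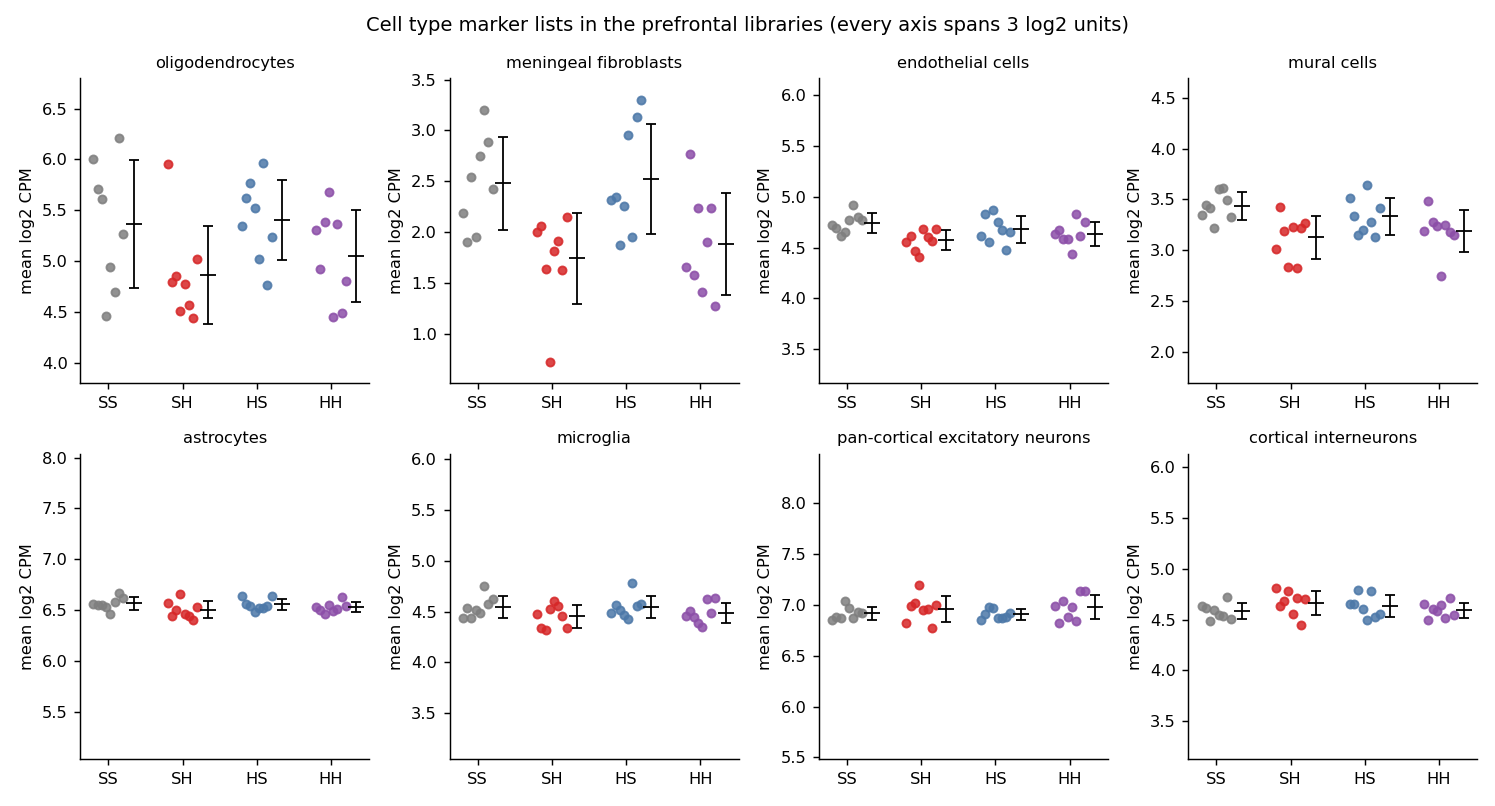
Mean log2 CPM of 8 marker lists (y axis, each spanning 3 log2 units) in the PFC libraries of SS, SH, HS and HH, points being mice and bars the mean ± SD of 8 mice. Meningeal scores are lower in SH than in SS, with 2 SS libraries inside the SH range, while astrocyte, microglial and neuronal scores are nearly level.

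No opioid gene differed detectably, and a few genes of the signalling downstream had a small unadjusted p without passing adjustment. Of 8 genes for opioid peptides and receptors 4 were higher and 4 lower, none at an unadjusted p under 0.05. Oprm1, the mu opioid receptor, held 3.06 to 8.87 CPM in SS (median 5.00) and 3.63 to 6.12 CPM in SH (median 4.46), with fully overlapping ranges (-0.18 ± 0.16 log2; edgeR adjusted p = 0.98). Oprk1, the kappa receptor, and Oprd1, the delta receptor, differed by -0.23 and 0.08, and the precursors Penk, Pdyn and Pnoc by -0.08, 0.08 and 0.11. Of 39 genes for inhibitory G protein and cAMP signalling 23 were higher, 3 of them at an unadjusted p under 0.05, beside 47.4% and 2.64% of all genes. Those were Prkar2a, a regulatory subunit of protein kinase A (0.21, p = 0.00286), Rgs4, which speeds G protein inactivation (0.18, p = 0.0142), and Arrb2, a beta-arrestin that takes part in opioid receptor desensitization (0.14, p = 0.0226). Rgs4 is also a member of the effector list.

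Lists for the pathways of Acer2 and Dio2 had 5 of 39 and 2 of 17 members at an unadjusted p under 0.05, the called genes included, where 5.6% of all genes did. Of 39 sphingolipid genes 15 were higher and 24 lower (median -0.02), and apart from Acer2 those at an unadjusted p under 0.05 were Sgms2, a sphingomyelin synthase (0.49), Kdsr (0.13), Cers2, a ceramide synthase of very long chains (-0.29), and Ugt8a, which makes galactosylceramide in myelin (-0.47) and is also an oligodendrocyte marker. Of 17 thyroid hormone genes 10 were higher (median 0.02), and besides Dio2 only Nrgn, a postsynaptic gene known to respond to the hormone, had such a p (0.19, p = 0.0433). Slco1c1, a thyroxine transporter, differed by 0.14 ± 0.08, and the receptors Thra and Thrb by 0.03 and -0.02.

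Of 28 glucocorticoid-responsive genes 22 were lower, 8 of them at an unadjusted p under 0.05 (median -0.11), where 52.6% of all genes were lower and 2.96% at that p. Plin4, a lipid droplet protein, held 25.5 to 46.1 CPM in SS (median 34.4) and 16.4 to 29.5 CPM in SH (median 23.0), a difference of -0.55 ± 0.15 (log2; edgeR adjusted p = 0.328). Map3k6 and Sgk1 differed by -0.36 and -0.33. Cdkn1a, a cell cycle inhibitor, went the other way (0.48, p = 0.00581), and Fkbp5, the co-chaperone used as a standard readout of glucocorticoid signalling, was level (-0.04 ± 0.08). The count of 8 was 4 without SH mouse 30 and without SS mouse 31, and 5 without SH mouse 10, 17 or 27 or SS mouse 6 or 15. Of 32 interferon-induced genes 25 were lower, 5 at such a p (beside the same 52.6% and 2.96%), led by Ifitm3 (-0.59, p = 0.00349) and H2-D1 (-0.40, p = 0.00391). That count was 0 within mouse set 1, 2 without SH mouse 10 or SS mouse 31, 3 without SH mouse 19, 27, 29 or 30 or SS mouse 8 or 28, and 0 with both marker scores in the fit. Over all genes, in either direction, 1899 of 21631 had such a p within set 1 and 490 of 19976 with both scores.

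The remaining lists are given beside 47.4% of all genes with a higher estimate, 2.64% higher and 2.96% lower at an unadjusted p under 0.05. Of 21 clock genes 3 were higher at such a p, Bhlhe40 (0.17), Cry2 (0.14) and Per1 (0.20), of which Bhlhe40 and Per1 are also activity-induced. Of 22 heat shock genes 17 were higher and 2 had such a p, Dnajb5 (0.29, p = 0.000472), a co-chaperone, and Hsp90ab1 (0.19, p = 0.0432). Among 17 neuropeptide genes 14 were higher and 1, Adcyap1, which encodes PACAP, had such a p: 30.3 to 38.4 CPM in SS (median 35.6) and 36.0 to 46.4 CPM in SH (median 42.0), a difference of 0.25 ± 0.06 (log2; edgeR adjusted p = 0.228). Of 24 glutamate receptor genes 1, Grm3, had such a p (-0.12). The counts were 0 of 22 for GABA synthesis and receptors, 0 of 23 for monoamine receptors, 0 of 20 for perineuronal net and matrix genes, and 1 of 26 for hypoxia and glycolysis genes (Ndrg1, -0.33). Of the 12 higher genes with the smallest p, those on no list were Zswim6, Nes, Dhrs3, which reduces retinal (0.39 ± 0.09), Frmd6 (0.28), Emd, the nuclear envelope protein emerin (0.26), and Ppp1r3c, which directs a phosphatase to glycogen (0.32).

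The same challenge in mice with a heroin history gives the values in 16 other mice, although both pairs were fitted together and share 1 estimate of the spread. Of these mice 6 HS and 6 HH were in set 1 and 2 HS and 2 HH in set 2, unlike the first pair. The part of the sets in differences between the pairs was not tested beyond an interaction fit with mouse set as covariate, which called 0 genes. HH against HS called 5 genes (0.025%), none lower (0%). At an unadjusted p under 0.05 there were 1327 genes (6.64%), 656 higher (3.28%) and 671 lower (3.36%). The 5 genes that rose were Dusp6 (0.47), Zswim6 (0.33), Egr2 (0.88), Nr4a1 (0.64) and Fosl2 (0.40). Zswim6 was called in both pairs of groups, with an edgeR adjusted p of 0.0122 in the second and a difference of 0.33 in each. Dio2 was higher by 0.43 (edgeR adjusted p = 0.111), with 80.96 to 153.9 CPM in HS and 137.2 to 184.9 CPM in HH. Acer2 differed by -0.44 (edgeR adjusted p = 0.644). Its HS libraries ran from 7.83 to 16.6 CPM and its HH libraries from 5.62 to 14.1 CPM, and the ranges overlapped over most of their length. Lcn2 differed by -0.04, Il1r1 by -0.14, Apold1 by -0.01 and Serpina3n by -0.07, while Dcn (-0.85) and Ptgds (-0.79) differed about as much as after the first challenge.

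By list, the medians of the second pair were 0.39 for AP-1 genes, 0.41 for Egr and Nr4a genes, 0.21 for effectors and 0.21 for MAP kinase feedback genes, and -0.09 for acute-phase genes, where the first pair gave -0.58. Set 1, in which the acute-phase median of the first pair was smaller in size than in set 2, made up more of the second pair. Meningeal markers had a median of -0.67 and 10 of 14 at an unadjusted p under 0.05, oligodendrocyte markers -0.36 and 2 of 15. The interaction tested whether the 2 responses differed, and called 0 genes (0%) of 19976 in edgeR, with 659 at an unadjusted p under 0.05 (3.3%) and 0 calls in DESeq2. Unadjusted, the difference between the responses had p = 0.00675 for Acer2, 0.00108 for Lcn2, 0.00905 for Il1r1 and 0.00331 for Apold1, and 0.989 for Zswim6 and 0.418 for Dio2. These genes were among those with the smallest p in SH against SS, and the interaction uses the same SH and SS values again. Their unadjusted p therefore give no separate support for a difference between the responses. A larger response of Acer2 or of the acute-phase genes to a first than to a later challenge is not shown by the adjusted test.

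Across genes the 2 pairs pointed the same way more often than not. Of all 19976 genes 58.1% had the same sign, of the 527 higher ones at an unadjusted p under 0.05 64.5% and of the 592 lower ones 74.2%. Among genes of at least 1 CPM with p under 0.001 in the first pair, 17 of 24 higher and 25 of 28 lower genes had the same sign in the second. The correlation of the log2 differences over 15019 genes of at least 1 CPM was 0.25, as a description across genes, which are not independent replicates.

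The same 16 mice also gave libraries from nucleus accumbens (NAc) and dorsal striatum (dStri), so the PFC response was compared within mouse. In limma the SH minus SS difference was not called to differ for any gene, 0 (0%) of 18839 between PFC and NAc and 0 (0%) of 18596 between PFC and dStri, with 524 (2.78%) and 960 (5.16%) at an unadjusted p under 0.05. Acer2 was lower in all 3 regions, by -0.82 ± 0.15 in NAc, where it was the 1 gene called (0.00506%; edgeR adjusted p = 0.035), and by -0.64 ± 0.14 in dStri (edgeR adjusted p = 0.283), where 0 genes (0%) were called. At an unadjusted p under 0.05 there were 670 genes (3.39%) in NAc and 1077 (5.53%) in dStri. Lcn2 and Il1r1 were lower there too, by -1.01 and -0.57 in NAc and by -0.81 and -0.47 in dStri. Dio2 was higher by 0.53 ± 0.14 in NAc and 0.28 ± 0.13 in dStri. Zswim6 was near 0 in NAc and dStri, 0.06 ± 0.08 and 0.03 ± 0.09, and the within-mouse difference from PFC had limma p = 0.0129 and 0.00913, which did not pass adjustment. The activity genes that follow had estimates above 0 in both striatal regions, of differing size, while Rgs4 gave -0.01 in each. Fosl2 gave 0.67 ± 0.17 in NAc and 0.36 ± 0.12 in dStri, Nr4a3 0.65 ± 0.17 and 0.52 ± 0.13, Dusp6 0.33 ± 0.12 in each, Fos 0.79 ± 0.25 and 0.16 ± 0.23, Dusp4 0.53 ± 0.14 and 0.19 ± 0.12, and Arc 0.38 ± 0.18 and 0.15 ± 0.17. Values were smaller for Fosb, 0.21 and 0.05, and for Inhba, 0.14 and 0.01. None of these genes passed adjustment in NAc or dStri, or in the difference from PFC. Dcn gave -0.62 and -0.17. Bdnf differed by 1.72 ± 0.76 in NAc and 2.56 ± 0.79 in dStri, with errors far above the 0.07 of PFC. Large estimates with large errors were not particular to Bdnf. Adcyap1 gave 1.87 ± 0.98 in NAc and 1.90 ± 0.61 in dStri, and Vip 0.80 ± 0.51 and 1.67 ± 0.54, while Trh gave 0.10 and 0.04. None of these 4 genes passed adjustment in NAc or dStri, and the cause of the large values was not tested.

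**Figure D5:**
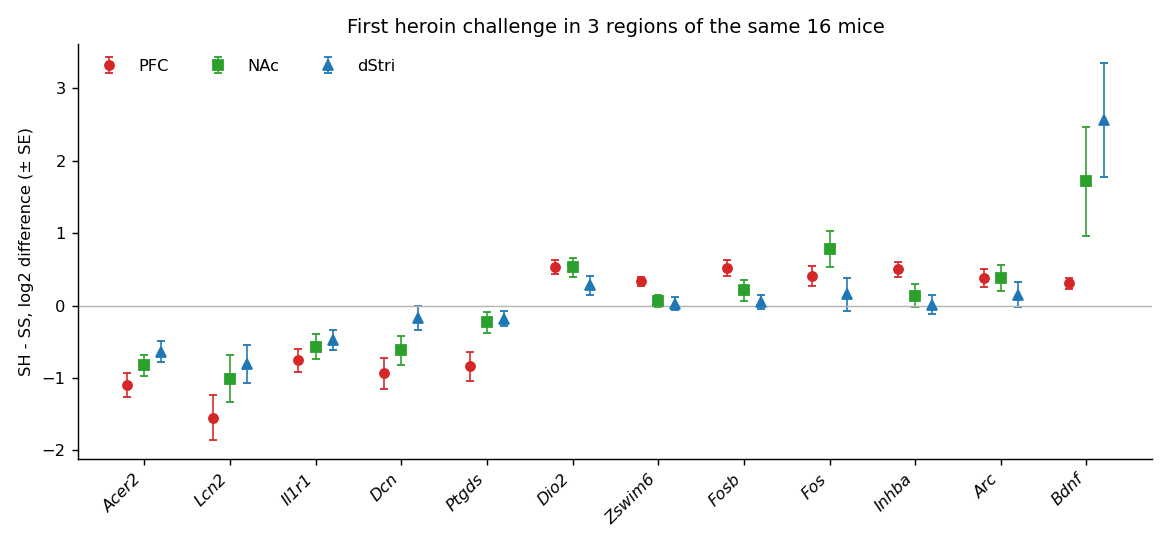
SH minus SS log2 difference with its SE (y axis) for 12 genes in the PFC, NAc and dStri of the same 16 mice. Acer2, Lcn2 and Il1r1 lie below 0 in all 3 regions, whereas Zswim6 is above 0 in PFC (0.33) and close to it in NAc and dStri.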

How the data were processed

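RNA from 6 brain regions was extracted with a Qiagen kit, depleted of ribosomal RNA, made into stranded Illumina TruSeq Gold libraries and sequenced as 2 ends of 150 bp, per the labels' protocols. The submitters' processing notes name HISAT2, HTSeq, SAMtools, FastQC and build mm10. Versions, the annotation release and the strand setting of the counting are not given in the sources used here. Analysed here were the counts that the authors deposited, unnormalized, by Ensembl gene, in 1 table of 52636 genes; 0 of its value columns lacked a sample. Names and coordinates come from GENCODE M21 (GRCm38), in which 52489 of the genes have a symbol.

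Counts of the 32 PFC libraries of SS, SH, HS and HH were filtered with edgeR 4.0.16 in R 4.3.3 at a minimum count of 10, given TMM factors and tested by quasi-likelihood, the model holding 1 coefficient per group. Log2 CPM carry a prior count of 1. Differences between regions were taken within each mouse and tested with limma 3.58.1. DESeq2 1.42.0 and limma voom were alternatives. Methods were tested on simulated data. Depth was at least 22.9 M counts, and over all genes together same-group libraries differed by far more than counting noise. How far depth limits single genes was not tested. Nothing says whether the 8 mice per group came from separate cages or litters.

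The genes named are those called, the 12 higher and 12 lower genes with the smallest p among genes of at least 1 CPM, the 3 members of each list with the smallest p, and Oprm1, Fos, Fkbp5 and Lcn2. Other list members, the genes whose groups do not overlap and genes called in HH against HS were named after their values were seen. The comparison, the gene lists and the rule were chosen with earlier results of these data known. Some results on single genes are not reported here. List results are counts and medians, without a set test. Promoters are from RefSeq (GRCm38.p6), matched by symbol for 63 of 75 named genes.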

Additional observations from a re-analysis of the deposited data

Results flagged for a closer look

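In groups of 8 mice, a library was singled out when its gap to the nearest other library took up an unusually large share of the range of its group. Chance singles out about 1 in 20 groups, and 12 gene and group pairs were among 74 genes searched in 2 groups. In SS these were mouse 28 for Fosb (19.6 CPM, the others from 28.3) and Cp (30.0 CPM, the others up to 21.8), mouse 22 for Cry2 (155.5 CPM) and Eno1 (716 CPM), mouse 32 for Klf10 (74.8 CPM), mouse 6 for Trh (3.70 CPM) and mouse 26 for Oprd1 (39.4 CPM). In SH these were mouse 30 for Tmem252 (0.652 CPM, the others from 2.21), mouse 10 for Klf2 (8.35 CPM) and mouse 29 for Egr4 (20.4 CPM, the others from 38.1), Grik2 (96.8 CPM) and Grm4 (12.6 CPM). None of the 3 called genes had such a library in SH or SS. No named gene differed between the first and the later challenge, or between PFC and NAc or dStri, at an adjusted p under 0.05.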

How the results depend on the processing

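The count of genes called in SH against SS, 3 in the reported fit, was 6 without a filter on low counts, 16 in DESeq2, 9 in limma voom, 5 when only the SH and SS libraries were fitted, 0 in mouse set 1 alone, 1 with the meningeal fibroblast score and 1 with both marker scores as covariates. It ranged from 2 to 15 when 1 library was left out, and the 15 without SS mouse 22 included mitochondrial genes and pseudogenes. With the mt-Rnr2 share as a covariate, an alternative chosen after seeing the data, it was 4. For HH against HS the count of 5 was 9 without the filter and 11 in DESeq2. The interaction gave 0 calls in each of the 4 alternatives run for it. Acer2, Dio2 and Zswim6 kept their direction in all 29 alternatives, with ranges of -1.24 to -0.83, 0.37 to 0.65 and 0.30 to 0.38, as did all 26 named genes with p under 0.001. Over all 75 named genes 8 of 2174 values changed sign: Trh in set 1 (-0.12), Grm4 in set 2 (-0.0094), Adamts4 with the oligodendrocyte score (0.13), Nrgn (-0.017), Eno1 (-0.0038) and Gabra3 (-0.043) with both scores, and Fkbp5 without SH mouse 24 (0.0068) and without SS mouse 15 (0.024), within a range of -0.069 to 0.024 when 1 library was left out. Each of the 2 marker lists lost its difference when its own score was a covariate, by construction: oligodendrocytes 0.0060 (0.011 with both scores) and meningeal fibroblasts 0.021 (0.031 with both). The cause of the other changes was not tested. SH and SS are different mice, so no pairing joins them. The region differences are paired by mouse, and with no replicate block the counts were again 0 for NAc and 0 for dStri, as with a prior count of 5. Whether depth limits named genes of few CPM, such as Lrg1 (0.375 to 1.30 CPM in SH), was not tested. Genes below 1 CPM, such as Timp1, were too low to compare firmly.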

Other observations

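Genes of different length were unevenly spread among the unadjusted differences. Protein-coding genes of at least 1 CPM were divided by their genomic span into 4 bins of equal size, with median spans of 5.91, 17.6, 40.5 and 125 kb. From the shortest to the longest bin, 4.17%, 2.92%, 2.34% and 1.83% of the genes were higher in SH at an unadjusted p under 0.05, and 3.26%, 3.14%, 3.17% and 4.54% were lower. The median log2 differences of the 4 bins were 0.002, 0.004, -0.001 and -0.004. In HH against HS the medians of the same bins ran the other way, -0.019, -0.009, 0.007 and 0.021. The share of counts on mt-Rnr2 was over 2% in 4 SH libraries and in 1 SS library, beside these shares, and its part in them was not tested.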
